A study of Mus musculus with 12 samples.

Results

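Double negative (DN) T cells were compared with γδ T cells, both sorted from mouse Peyer's patches, on the 6 arrays labelled DN 1 to 3 and γδ 1 to 3 out of 12 arrays in the series. Both fractions came from pools of 3 to 5 C57BL/6 mice of both sexes at 10 weeks of age, with no treatment or engineered allele named in the labels. The DN gate took cells with TCRβ and without the γδ receptor, CD4 or CD8β, and the γδ gate took cells with the γδ receptor and without TCRβ. CD8α was not part of either gate, and the γδ gate as labelled used neither CD4 nor CD8β. Purity after sorting is given in the labels as more than 98%, and total RNA was labelled with Cy5. The other 6 arrays are the CD4 and CD8β fractions of TCRβ-bearing cells, with 3 arrays each. RNA was collected in 3 rounds, but the labels do not say that each round used other mice, so p-values measure only the spread between these samples, which may be technical.

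Peyer's patches are clusters of lymphoid tissue along the small intestine, where T cells meet antigens taken up from the gut. αβ T cells recognise peptides held by MHC molecules, and most carry CD4 or CD8 as a coreceptor, whereas γδ T cells use a different receptor and mostly carry neither. T cells of both kinds in the gut often carry CD8α as a homodimer and natural killer (NK) receptors, which bind MHC class I and related molecules and send inhibitory or activating signals.

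Signal was read as the median of each spot and placed on a log2 scale after background correction and quantile normalisation, so a difference of 1 is 2-fold. The lowest signal of a detected probe lay at 5.73 to 5.78 on every array and the median of all probes at 6.05, so values near 6 are close to background. Mean blank-spot intensity was 58.58 to 62.16 over the 12 arrays, the median probe intensity was 70.75 to 77.92, and each array detected 18930 to 21394 of 23448 probes. Precision is limited by the number of arrays. Differences are given as DN minus γδ, so positive values are higher in DN.

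The labels were first set against the genes of the sort. Of 13 such genes, 6 had a probe with a symbol, and none of the receptor chain genes did, so the γδ and αβ receptors themselves were not read here. Cd8b1, the CD8β chain, gave 6.29, 6.26 and 6.28 on DN 1 to 3, which are near background as the gate asks. On the γδ arrays it gave 13.91, 8.29 and 8.14, and on the arrays labelled CD8 it gave 8.57, 13.80 and 13.62. The array labelled γδ 1 thus carried Cd8b1 at the level of CD8 2 and CD8 3. The array labelled CD8 1 carried it near the level of γδ 2 and γδ 3. CD4 1 to 3 gave 8.26, 7.93 and 7.80, so that lower level was not particular to the γδ arrays. Cd163l1, a scavenger receptor gene known from γδ T cells, gave 6.11 on γδ 1 against 8.57 and 8.48 on γδ 2 and γδ 3, and 8.23 on CD8 1. Both arrays keep their labels here. CD8 1 was not used as a γδ array, and the counts of calls and the named calls are given with γδ 1 and without it. The remaining sort genes were not called: Cd4 was 6.00 to 6.16 on all 6 arrays, and the CD3 chains Cd3d, Cd3e and Cd3g had adjusted p-values of 0.554 to 0.979 without γδ 1 (limma).

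**Figure D1:**
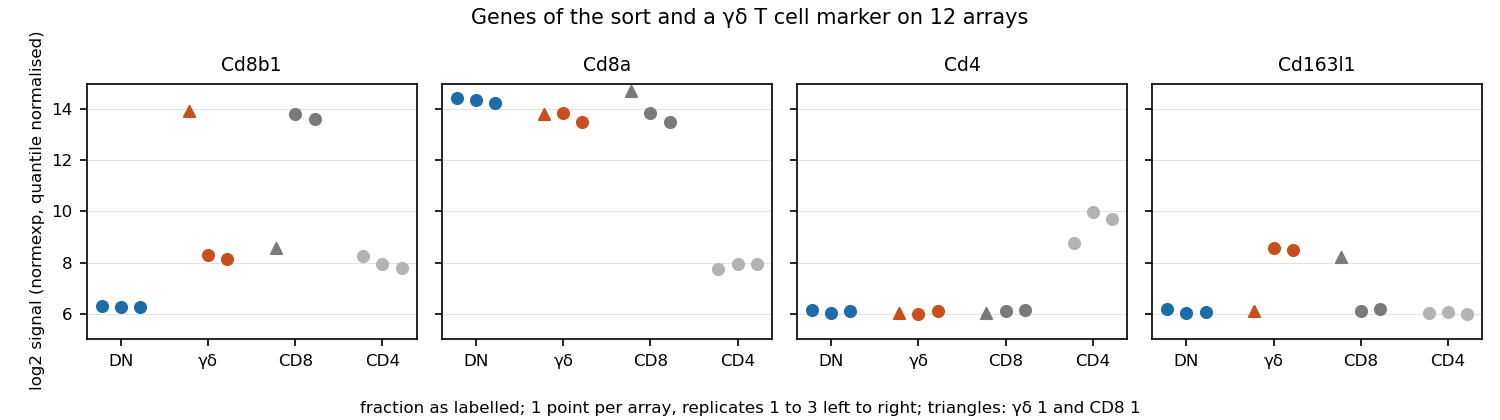
log2 signal of Cd8b1, Cd8a, Cd4 and Cd163l1 (y axis) on each array of the 4 fractions as labelled (x axis), with triangles for γδ 1 and CD8 1. γδ 1 sits at 13.91 for Cd8b1, beside CD8 2 and CD8 3, and CD8 1 sits at 8.23 for Cd163l1, beside γδ 2 and γδ 3.

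DN 2 and DN 3 were closer to γδ 2 and γδ 3 than to any array of another fraction. Over 20015 probes, DN 2 and DN 3 correlated with γδ 2 and γδ 3 at 0.99 to 0.991 across probes, which are not independent replicates, and only 41 to 57 probes differed more than 2-fold in each pair of arrays. DN 2 and DN 3 differed from CD8 2 and CD8 3 by more than 2-fold at 590 to 627 probes, and from CD4 2 and CD4 3 at 546 to 569. γδ 1 differed from γδ 2 and γδ 3 at 1207 and 1195 probes, and from DN 1 at 486. DN 1 differed from the array labelled CD8 1 at 66 probes. Within a fraction, DN 2 and DN 3 differed at 2 probes and γδ 2 and γδ 3 at 0, while DN 1 differed from DN 2 and DN 3 at 546 and 527. In the array codes, replicate 1 of each fraction carries the letter H and replicates 2 and 3 the letter B. These letters were taken here as array series H and B, with no other source for the series. Without γδ 1 only DN has an array of series H.

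As labelled, 1 of 19909 probes passed limma at adjusted p under 0.05, which is 0.00502%, and it was higher in DN. Probe M400011225, which has no gene symbol, gave 8.76, 8.97 and 9.03 on DN 1 to 3 and 6.16, 6.13 and 6.14 on γδ 1 to 3, a difference of 2.77 ± 0.08 (SE) with limma's adjusted p of 0.00427. It was as different without γδ 1, by 2.78 with an adjusted p of 0.0179. In fits of the 2 fractions without a block, all other calls below need γδ 1 to be left out. Without it, 39 of 20015 probes were called, or 0.195%, of which 12 (0.06%) were higher in DN and 27 (0.135%) lower. All 39 had the same sign as labelled, and 27 of them have a symbol. They and the named calls include Cd8b1, the gene for which γδ 1 was left out and whose protein the DN gate excluded. A lack of overlap between the fractions is common by itself. Without γδ 1, all DN values lay above γδ 2 and γδ 3 for 19.0% of probes and below for 19.5%.

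The counts depend on how the arrays are grouped. With the replicate number as a block, limma called 0 probes as labelled (2649 at unadjusted p under 0.05) and 3206 without γδ 1. With a block for the array series and γδ 1 kept, it called 230, of which 117 were higher and 113 lower in DN. Within series B, where both fractions have replicates 2 and 3, it called 2449. With γδ 1 left out, dropping DN 2, DN 3, γδ 2 or γδ 3 as well left 0 calls (1759, 1812, 1124 and 1151 at unadjusted p under 0.05), while every named call kept its direction. A fit added after the data were seen, on the 10 arrays other than γδ 1 and CD8 1 with a block for the array series, called 1322 probes (6.61%), 643 higher (3.21%) and 679 lower (3.39%) in DN. It shared 31 of the 39 calls, from the same DN and γδ arrays, so this is no independent check. It is named the 10-array fit below. γδ and CD8 have no array of series H in it. The shift between series thus comes from DN and CD4 and is taken as equal in γδ. Its spread rests mostly on replicates 2 and 3, which were close to each other, so its p-values may be too small.

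**Figure D2:**
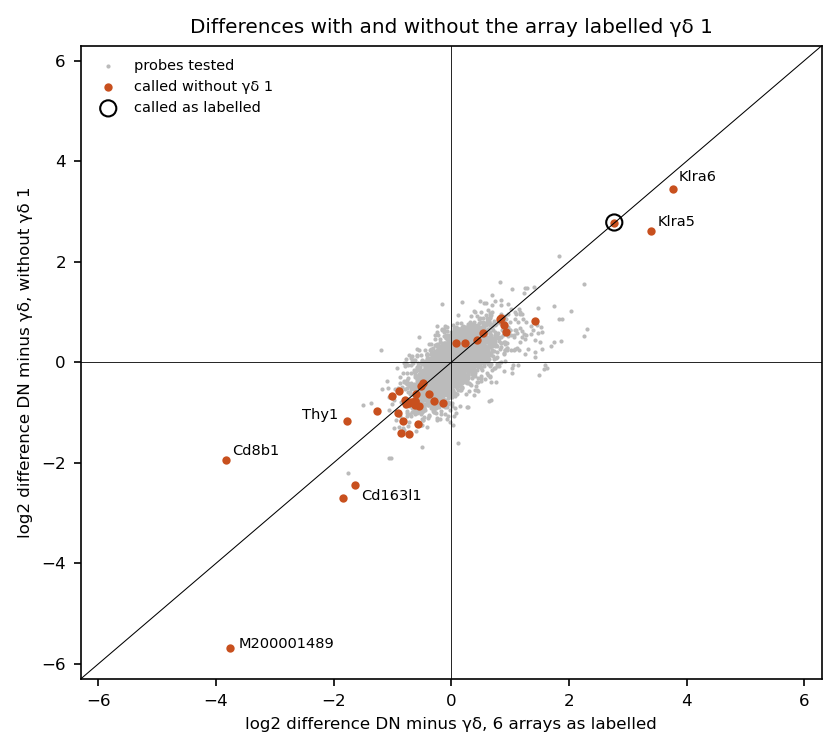
Each point is a probe, with the log2 difference DN minus γδ from all 6 arrays on the x axis and without γδ 1 on the y axis; coloured points are the 39 calls without γδ 1 and the ring marks the 1 call as labelled. Klra6 and Klra5 lie far above 0 on both axes, and Cd8b1 lies nearer to 0 without γδ 1 (-1.94 against -3.83).

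The named genes highest in DN over γδ cells were a pair of Ly49 receptors, Klra6 and Klra5. Ly49 receptors are lectin-like NK receptors of mice, encoded beside each other on chromosome 6, that bind MHC class I molecules. Klra6 gave 10.66, 10.50 and 10.67 on DN 1 to 3, against 7.07 and 7.27 on γδ 2 and γδ 3 and 6.20 on γδ 1. All DN values lay over 3 log2 units above all γδ values. The difference was 3.45 ± 0.09 (SE) without γδ 1 (limma, adjusted p = 0.0088) and 3.77 ± 0.30 as labelled (adjusted p = 0.114). Klra5 gave 11.16, 10.90 and 10.84 on DN 1 to 3, 8.41 and 8.32 on γδ 2 and γδ 3, and 5.98 on γδ 1. Its groups did not overlap either, and the difference was 2.61 ± 0.11 without γδ 1 (adjusted p = 0.0213) and 3.40 ± 0.71 as labelled (adjusted p = 0.501). γδ 2 and γδ 3 lay between the DN arrays and the CD4 and CD8 2 and 3 arrays for both genes, the latter at 5.90 to 6.11. This needs γδ 1 and CD8 1 to be left out. γδ 1 lay near the CD4 arrays, and CD8 1 gave 9.92 for Klra5 and 8.27 for Klra6, above γδ 2 and γδ 3.

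Klra5 and Klra6 are close copies, and a probe of one may also bind transcripts of the other or of other Ly49 genes. Their promoter windows, 250 bases before to 50 after the start in RefSeq on build GRCm38.p6, are shown because both genes moved together. They lie on the minus strand at chr6:129913175-129913474 and chr6:130026905-130027204, and 249 of 271 aligned bases were identical (91.9%). Capitals mark bases aligned to a different base of the other window.
Klra5: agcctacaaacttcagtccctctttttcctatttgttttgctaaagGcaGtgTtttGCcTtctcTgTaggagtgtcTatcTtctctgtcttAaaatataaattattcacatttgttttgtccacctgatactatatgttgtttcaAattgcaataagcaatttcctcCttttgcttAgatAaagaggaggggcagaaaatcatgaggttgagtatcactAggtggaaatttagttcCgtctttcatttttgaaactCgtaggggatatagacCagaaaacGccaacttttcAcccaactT
Klra6: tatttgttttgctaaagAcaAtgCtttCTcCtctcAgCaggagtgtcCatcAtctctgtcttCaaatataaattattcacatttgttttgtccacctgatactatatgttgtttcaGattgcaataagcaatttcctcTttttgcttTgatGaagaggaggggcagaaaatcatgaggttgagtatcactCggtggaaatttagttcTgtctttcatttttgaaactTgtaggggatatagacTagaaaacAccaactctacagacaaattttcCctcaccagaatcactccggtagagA

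The Ly49 list held 23 genes, of which 10 were on the array and 9 were tested. Klra5 and Klra6 were the 2 called without γδ 1, none was lower, and none was called as labelled. The median difference of the 9 genes was 0.13, against 0.01 over 16667 genes, and as labelled 0.15 against 0. Klra16 gave 6.56, 6.80 and 6.84 on DN 1 to 3 and 5.75, 5.78 and 5.77 on γδ 1 to 3, without overlap. Its difference of 0.96 was not called (adjusted p = 0.0944; 0.115 as labelled) and the probe was detected on only 1 of γδ 2 and γδ 3. In the 10-array fit it was called (1.00, adjusted p = 0.000911), as were Klra3 and Klra10 with differences of 0.15 and 0.21. That fit called 5 of the 9 genes higher and 0 lower, against 3.21% and 3.39% of all probes. The Klra3 and Klra10 probes were near background. Klra3 gave 5.93 to 6.06 in DN and 5.87 to 5.89 in γδ, and Klra10 gave 6.05 to 6.21 and 5.92 to 5.97. Klra4, Klra8, Klra17 and Klra14-ps were at 5.72 to 6.20 on all 6 arrays, near background.

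Among other NK receptors, 2 of 17 genes tested were called higher in DN without γδ 1 and 0 lower, with a median difference of 0.12. As labelled the median was 0.52 over 16 genes with 0 called. Klrb1a, an activating lectin of the NKR-P1 family, gave 9.58, 9.58 and 9.57 on DN 1 to 3 and 8.77 and 8.71 on γδ 2 and γδ 3, with 6.98 on γδ 1. The difference was 0.83 ± 0.03 without γδ 1 (limma, adjusted p = 0.0184), and as labelled 1.42 ± 0.52 (adjusted p = 0.830), so that γδ 1 widened it without a call. Klrc1, which encodes the inhibitory receptor NKG2A, gave 7.03, 7.14 and 7.08 in DN and 5.90, 6.32 and 6.35 in γδ, a difference of 0.74 ± 0.04 (adjusted p = 0.0368; as labelled 0.89, adjusted p = 0.315).

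Klrd1, the CD94 partner chain of NKG2 receptors, was bright in both fractions. It gave 13.20, 13.68 and 13.66 on DN 1 to 3 and 13.28 and 13.25 on γδ 2 and γδ 3, which overlap, whereas γδ 1 gave 11.26. The difference was 0.25 ± 0.17 without γδ 1 (adjusted p = 0.666), against 0.92 as labelled. Klre1, an NK receptor of the same gene region, gave 9.70, 10.06 and 9.90 in DN and 6.19, 8.34 and 8.33 in γδ, without overlap, but was not called (1.55 ± 0.12, adjusted p = 0.0602; as labelled 2.26, adjusted p = 0.693). The 10-array fit called 6 of the 17 genes higher and 2 lower, against 3.21% and 3.39% of all probes. This fit called Klre1 (1.60, adjusted p = 0.000206) together with Klrb1c, Klrk1 and Klrd1 as higher in DN. It called the inhibitory NKR-P1 receptor Klrb1b lower (-0.33, adjusted p = 0.0009), which was 5.85 to 5.93 in DN and 6.27 and 6.24 on γδ 2 and γδ 3, along with Cd160 (-0.30).

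**Figure D3:**
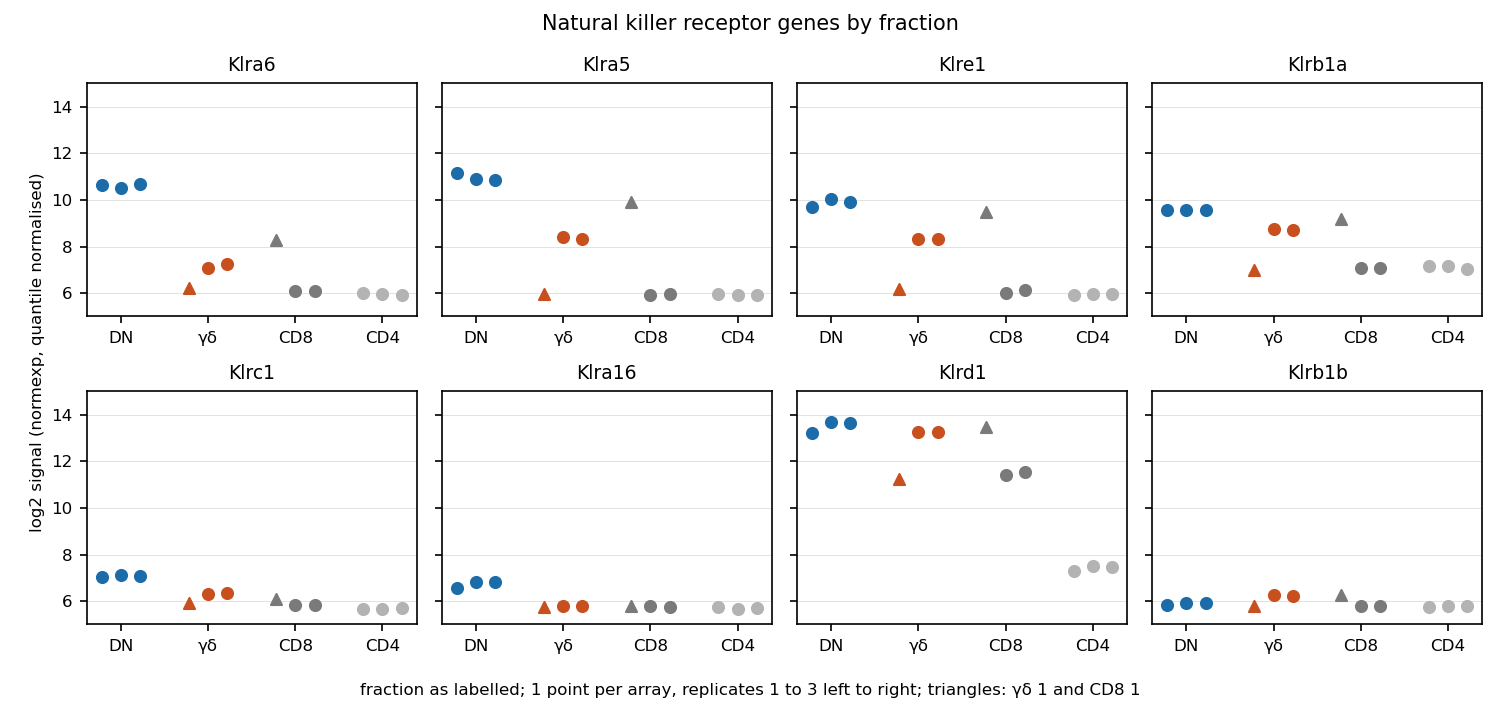
log2 signal of 8 NK receptor genes (y axis) on each array of the 4 fractions as labelled (x axis), with triangles for γδ 1 and CD8 1. DN arrays lie above γδ 2 and γδ 3 for Klra6, Klra5, Klre1, Klrb1a, Klrc1 and Klra16, overlap them for Klrd1 and lie below them for Klrb1b.

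The genes that were lower in DN than in γδ cells once γδ 1 was left out included Cd163l1, Ffar2, Tns4 and Tgm2, for each of which γδ 1 lay with or below DN. The largest difference belonged to probe M200001489, which has no symbol. It gave 6.81, 6.89 and 6.94 on DN 1 to 3 and 12.35 and 12.76 on γδ 2 and γδ 3, with 6.79 on γδ 1 and 12.72 on CD8 1. Its difference was -5.68 ± 0.14 (limma, adjusted p = 0.0088), and -3.76 as labelled (adjusted p = 0.956). A second probe without a symbol, M400018872, gave 5.80 to 6.03 in DN, 8.46 and 8.68 on γδ 2 and γδ 3, 6.02 on γδ 1 and 10.03 on CD8 1. It was called without γδ 1 (-2.69, adjusted p = 0.0187) and not as labelled (-1.84, adjusted p = 0.901).

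Cd163l1 gave 6.17, 6.02 and 6.06 on DN 1 to 3 and 8.57 and 8.48 on γδ 2 and γδ 3, with 6.11 on γδ 1. The difference was -2.44 ± 0.06 without γδ 1 (limma, adjusted p = 0.0088) and -1.64 ± 0.71 as labelled (adjusted p = 0.932). With an offset of 16 in place of 50 in the background correction it was -3.31, and on the deposited value table -4.19. It was the 1 gene called lower, with 0 higher, of 21 tested on a list of γδ and type 17 genes, whose median was -0.09 without γδ 1 and -0.05 as labelled. Rora, a transcription factor of type 17 cells, gave 7.60 on average on γδ 2 and γδ 3 and 6.84 in DN, and the leukotriene B4 receptor Ltb4r1 gave 6.89 and 5.99. Neither was called without γδ 1 (-0.75 and -0.90, adjusted p = 0.225 and 0.0788) or as labelled (-0.57 and -0.52, adjusted p = 0.829 and 1), and both were lower in DN in the 10-array fit (-0.92 and -0.83, adjusted p = 0.000447 and 0.000118). The type 17 cytokines Il17a and Il17f and the γδ lineage factors Sox13 and Sox4 differed by 0.19 or less in either direction, with adjusted p-values of 0.415 to 0.730.

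Tmem176a and Tmem176b, a pair of membrane proteins found in type 17 lymphocytes and myeloid cells, had the same pattern. Tmem176a gave 6.21, 6.61 and 6.57 on DN 1 to 3 and 8.43 and 8.30 on γδ 2 and γδ 3, with 5.85 on γδ 1. Tmem176b gave 6.04, 6.73 and 6.74 on DN 1 to 3 and 8.45 and 8.38 on γδ 2 and γδ 3, with 5.74 on γδ 1. Neither was called without γδ 1 (-1.90 and -1.91, adjusted p = 0.0629 and 0.115), and DN 1 was the lowest DN array for both. The 10-array fit called them at -1.66 and -1.59 (adjusted p = 0.00265 and 0.00155), and their differences within series B were -1.77 and -1.68. As labelled, the array γδ 1 lay below all DN arrays for both genes, and the differences were -1.06 and -1.02 (adjusted p = 1).

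Both genes are read outward from a shared stretch of chromosome 6. The Tmem176a window on the plus strand at chr6:48841406-48841705 (RefSeq, GRCm38.p6) is shown because it shares 219 of its bases, in capitals, with the window of Tmem176b on the minus strand.
Tmem176a: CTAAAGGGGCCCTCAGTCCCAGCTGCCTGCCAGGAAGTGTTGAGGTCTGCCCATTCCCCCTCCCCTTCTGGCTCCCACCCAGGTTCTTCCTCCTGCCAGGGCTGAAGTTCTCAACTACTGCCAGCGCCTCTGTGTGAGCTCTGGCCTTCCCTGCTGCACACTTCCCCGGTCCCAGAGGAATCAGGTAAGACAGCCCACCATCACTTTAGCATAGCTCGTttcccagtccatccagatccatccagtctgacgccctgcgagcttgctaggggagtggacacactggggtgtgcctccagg

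Ffar2, a receptor for short-chain fatty acids made by gut bacteria, gave 6.87, 6.70 and 6.82 on DN 1 to 3 and 8.26 and 8.16 on γδ 2 and γδ 3, with 6.11 on γδ 1. The difference was -1.42 ± 0.07 without γδ 1 (limma, adjusted p = 0.0258) and -0.72 ± 0.62 as labelled (adjusted p = 1). Tns4, a tensin of cell adhesions (-1.41, adjusted p = 0.0213), and Tgm2, a transglutaminase (-1.22, adjusted p = 0.0187), had 5.89 and 5.97 on γδ 1, below all DN arrays. As labelled Tns4 differed by -0.85 and Tgm2 by -0.57, both with an adjusted p of 1. For these genes the sign as labelled rests on γδ 2 and γδ 3 alone. The spermine oxidase gene Smox and the myosin light chain gene Myl10 differed from them in that γδ 1 lay on the γδ side. Smox gave 6.33 to 6.39 in DN and 6.88, 7.20 and 7.15 in γδ (-0.81, adjusted p = 0.0187; as labelled -0.71, adjusted p = 0.233). Myl10 gave 5.91 to 5.98 in DN and 6.58, 6.77 and 6.77 in γδ (-0.83, adjusted p = 0.0187; as labelled -0.77, adjusted p = 0.115).

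**Figure D4:**
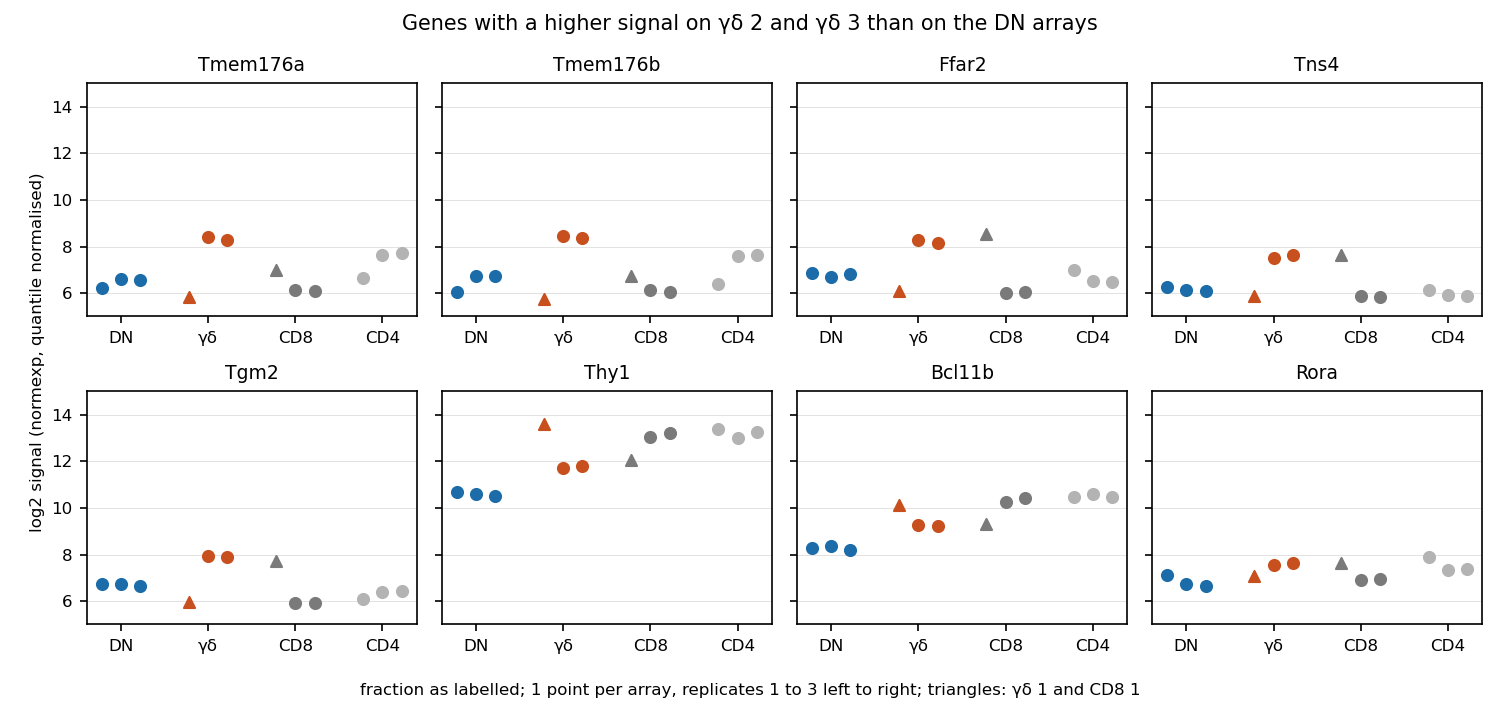
log2 signal of 8 genes with lower values in DN (y axis) on each array of the 4 fractions as labelled (x axis), with triangles for γδ 1 and CD8 1. γδ 2 and γδ 3 lie above DN in each panel, while γδ 1 lies below all DN arrays for Tmem176a, Tmem176b, Ffar2, Tns4 and Tgm2, among them for Rora and above γδ 2 and γδ 3 for Thy1 and Bcl11b.

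Genes of T cell identity included 2 that were lower in DN. Thy1, a surface glycoprotein of T cells, gave 10.70, 10.59 and 10.53 on DN 1 to 3 and 11.73 and 11.82 on γδ 2 and γδ 3, with 13.62 on γδ 1. Its difference was -1.17 ± 0.07 without γδ 1 (limma, adjusted p = 0.0354) and -1.78 ± 0.55 as labelled (adjusted p = 0.722), and a second, dim Thy1 probe was not called (0.03). Bcl11b, a transcription factor that commits precursors to the T lineage, gave 8.28, 8.35 and 8.20 in DN, 9.27 and 9.23 on γδ 2 and γδ 3, and 10.11 on γδ 1. The difference was -0.97 ± 0.05 (adjusted p = 0.0354; as labelled -1.26, adjusted p = 0.498). For both genes γδ 1 was above γδ 2 and γδ 3 and the CD8 2 and CD8 3 arrays were also higher, at 13.04 and 13.21 for Thy1 and 10.26 and 10.42 for Bcl11b. Over the 12 genes of that list 0 were called higher and 2 lower, with a median of -0.06 (-0.11 as labelled, 0 called).

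Cd8b1 was lower in DN by -1.94 ± 0.05 without γδ 1 (limma, adjusted p = 0.0088), and cells with CD8β lay outside the DN gate. γδ 1 was also left out because of its Cd8b1 value, so this call is no independent test. The CD4 arrays, at 7.80 to 8.26, lay near γδ 2 and γδ 3 for this gene. As labelled the Cd8b1 difference was -3.83 ± 1.67 (adjusted p = 0.932), the larger size coming from the 13.91 of γδ 1. Cd8a was bright in both fractions, with 14.42, 14.35 and 14.22 on DN 1 to 3 and 13.80, 13.83 and 13.49 on γδ 1 to 3. The groups did not overlap and the difference of 0.67 was not called (adjusted p = 0.178; as labelled 0.62, adjusted p = 0.401). The 10-array fit called it higher in DN (0.68, adjusted p = 0.0498). The costimulatory receptor Cd28 gave 9.39, 9.06 and 9.06 in DN and 8.06 and 7.99 on γδ 2 and γδ 3, with 11.95 on γδ 1. Its sign turned with that array, from -0.16 as labelled to 1.15 without it (adjusted p = 0.0996; 1.03 in the 10-array fit, adjusted p = 0.000185).

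The remaining lower calls with a name were below 1 log2 unit in size. Rtf1, a subunit of the Paf1 elongation complex, differed by -0.87 (limma, adjusted p = 0.0419), the kinase gene Ulk3 by -0.77 (adjusted p = 0.0354) and the transcriptional repressor Gfi1 by -0.77 (adjusted p = 0.0479). As labelled they differed by -0.54, -0.62 and -0.62 (adjusted p = 1, 0.524 and 0.579). Gfi1 was not called by the 10-array fit (adjusted p = 0.164). Pcbd2, Rcn3, Mxd1, Tra2b, Fam160a1, Vamp5 and the predicted genes Gm4862 and Gm4956 differed by -0.48 to -0.80 without γδ 1. As labelled the same genes differed by -0.14 to -1.01, with Gm4956 at -0.14, Pcbd2 at -0.29 and Mxd1 at -0.38 (adjusted p = 1 for each) and Rcn3 at -1.01 and Fam160a1 at -0.88 (adjusted p = 0.713 and 0.729). Second probes of Vamp5, Mxd1 and Rcn3 were not called, and that of Vamp5 had the opposite sign (0.70, adjusted p = 0.284).

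The median of the MHC class II genes moved more with γδ 1 than that of any other list. MHC class II molecules present peptides to CD4 T cells and are made mainly by B cells and other antigen-presenting cells. As labelled, the median difference of 13 class II presentation genes was 0.62, against 0 over all 16587 genes, and without γδ 1 it was -0.11. None was called in either setting. H2-Aa, a class II α chain, gave 14.02, 14.22 and 14.08 on DN 1 to 3, 13.63 and 13.72 on γδ 2 and γδ 3, and 9.40 on γδ 1. The difference was 0.43 without γδ 1 (limma, adjusted p = 0.155) and 1.86 as labelled (adjusted p = 1). H2-Ab1 differed by -0.11 and the invariant chain gene Cd74 by 0.66 without γδ 1 (adjusted p = 0.955 and 0.592), and by 1.04 and 2.30 as labelled (adjusted p = 1). High class II signal was therefore measured on γδ 2 and γδ 3 as well as on the DN arrays. CD8 1 carried it too, with 13.6 for H2-Aa against 8.06 and 8.16 on CD8 2 and CD8 3. The mean of the 13 genes was 8.2 on CD8 1 and 7.12 and 7.11 on CD8 2 and CD8 3. The 10-array fit called 1 of the 13, which is near its share of 6.61% over all probes. It was the lysosomal protease gene Lgmn (0.51, adjusted p = 0.0105).

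B cell marker genes moved in the same way, and their part in the class II signal was not tested. The mean log2 signal of 16 B cell genes was 7.91, 8.34 and 8.37 on DN 1 to 3. γδ 2 and γδ 3 gave 8.0 and 8.03, γδ 1 gave 6.44 and CD8 1 gave 7.5. The CD4 arrays, CD8 2 and CD8 3 gave 6.25 to 6.46. γδ 1 was the lowest of the 6 arrays for 16 of 16 B cell genes and for 11 of 13 class II genes, against 25.8% of all probes. The median difference of the B cell genes was 0.55 as labelled and 0.20 without γδ 1, with 0 of 16 called in both. Cd79b, a signalling chain of the B cell receptor, gave a mean of 12.72 ± 0.09 (SD, n = 3) in DN and 12.52 ± 0.25 (n = 2) on γδ 2 and γδ 3, and Ms4a1, which encodes CD20, gave 11.02 ± 0.33 and 10.16 ± 0.32. Pax5, Spib and Pou2af1, transcription factors of B cells, were near background, at 5.80 to 6.36 on all 6 arrays. In these bulk samples fewer cells of a type and less RNA per cell cannot be told apart. The 10-array fit called 2 of the 16 higher in DN and 0 lower, against 3.21% and 3.39% of all probes. They were Blnk, a B cell adaptor protein, and Cd83 (0.83 and 0.59, adjusted p = 0.0284 and 0.0108). Without γδ 1, 13 of the 16 had a positive difference. All DN values lay above γδ 2 and γδ 3 for 4 genes and below for 2, against 19.0% and 19.5% of all probes. The 2 below were Ly86 (-0.57) and Cr2 (-0.21).

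**Figure D5:**
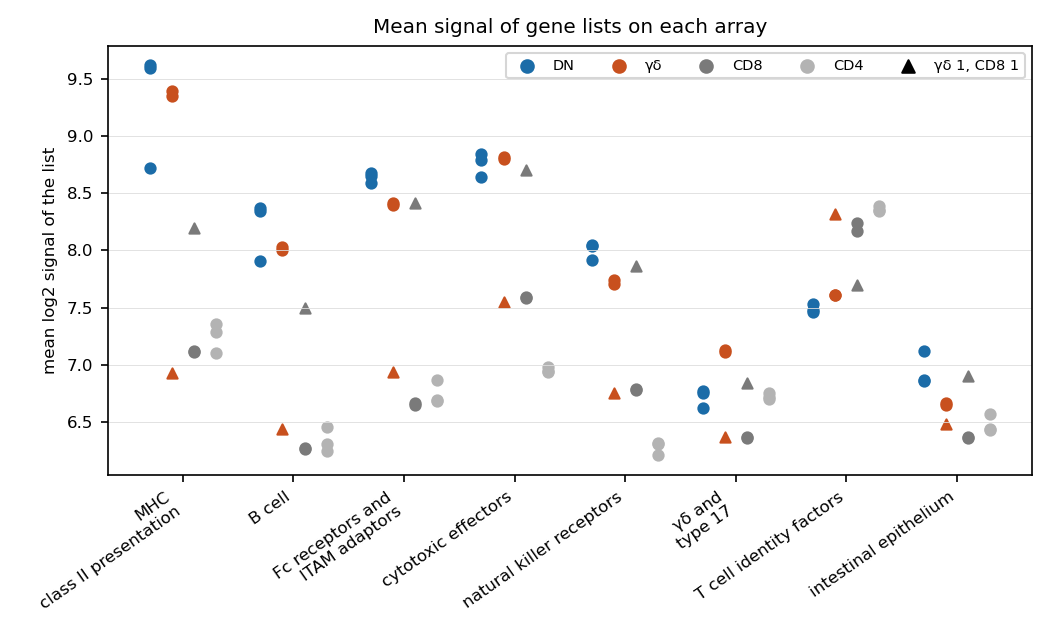
Mean log2 signal of 8 gene lists (y axis) on each array, grouped by list (x axis) and coloured by fraction as labelled, with triangles for γδ 1 and CD8 1. γδ 1 lies at 6.93 for MHC class II presentation and 6.44 for B cell genes, apart from γδ 2 and γδ 3 at 9.35 and 9.39 and at 8.0 and 8.03.

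Fc receptor and ITAM adaptor genes, which pass signals from antibody and NK receptors, had a median difference of 0.26 over 12 genes without γδ 1 and 0.35 as labelled, with 0 called in both. Fcer1g, the shared γ chain of Fc receptors, gave 13.05, 13.14 and 13.06 in DN, 12.59 and 12.53 on γδ 2 and γδ 3, and 7.35 on γδ 1. The groups did not overlap, but the difference of 0.53 was not called without γδ 1 (limma, adjusted p = 0.0755), nor was that of 2.26 as labelled (adjusted p = 1). The 10-array fit called Fcer1g, Fcgr3, Fcgr2b and Syk higher in DN (0.50, 0.26, 0.16 and 0.16) and the T cell receptor chain Cd247 lower (-0.29). That is 4 of 12 higher and 1 lower, against 3.21% and 3.39% of all probes. Cytotoxic effector genes had means of 8.64 to 8.84 on the DN arrays and 8.80 and 8.82 on γδ 2 and γδ 3, with a median difference of -0.05 over 20 genes and 0 called. As labelled their median was 0.21, with γδ 1 the lowest array for 15 of 20, against 25.8% of all probes. The chemokine Ccl4 gave 8.19 to 8.73 in DN and 9.39 and 9.44 on γδ 2 and γδ 3, which was not called without γδ 1 (-0.90, adjusted p = 0.206; as labelled 0.06, adjusted p = 1) and was called by the 10-array fit (-0.81, adjusted p = 0.00926).

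Markers of the intestinal epithelium included 1 gene that was higher in DN. Krt18, a keratin of simple epithelia, gave 7.21, 7.30 and 7.20 on DN 1 to 3 and 6.47, 6.42 and 6.34 on γδ 1 to 3. The difference was 0.86 ± 0.05 without γδ 1 (limma, adjusted p = 0.0354) and 0.83 ± 0.05 as labelled (adjusted p = 0.104), so its size did not need γδ 1 to be left out although its call did. Without γδ 1 it was the only call among 20 epithelial markers, of which 18 had a positive difference and 12 had all DN values above γδ 2 and γδ 3, against 19.0% of all probes. The median was 0.16 (0.23 as labelled), and the mean of the list was 7.12, 6.87 and 6.86 on DN 1 to 3 and 6.48, 6.67 and 6.65 on γδ 1 to 3. Reg3b, an antibacterial lectin of enterocytes and Paneth cells, gave 7.58, 7.22 and 7.22 in DN and 6.00, 6.38 and 6.18 in γδ without a call (1.06, adjusted p = 0.121; as labelled 1.15, adjusted p = 0.223). The 10-array fit called 3 of the 20 higher and 0 lower, against 3.21% and 3.39% of all probes. They were Krt18 (0.83, adjusted p = 0.00202), Reg3b (1.05, adjusted p = 0.0146) and the cadherin gene Cdh17 (0.28, adjusted p = 0.0107). The part of epithelial RNA in other results was not tested. Apol9a, of the apolipoprotein L family, and Med24, a Mediator subunit, were the remaining named genes higher in DN (0.61 and 0.45, adjusted p = 0.0354 and 0.0454; as labelled 0.93 and 0.43, adjusted p = 0.725 and 0.114).

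The other lists held no called gene in either setting. Among them, 23 ribosomal protein genes had a median of -0.01 and 17 cell cycle genes of 0.08 without γδ 1, against -0.11 and 0.11 as labelled. Macrophage and monocyte, dendritic cell, granulocyte and mast cell, plasma cell, and stroma and endothelium markers had medians from -0.04 to 0.05 without γδ 1. The immediate early and stress genes had a median of 0.06, and their mean was 7.74 on DN 1 against 7.43 and 7.44 on DN 2 and DN 3. In the gut retention list, Rgs2, a regulator of G protein signalling chosen after its values were seen, gave 12.76, 9.51 and 9.42 on DN 1 to 3 and 11.29, 9.12 and 8.83 on γδ 1 to 3 (1.59 without γδ 1, adjusted p = 0.689).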

How the data were processed

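Total RNA of the 12 sorted samples was hybridised to Toray 3D-Gene mouse arrays. Per the file headers, the authors' array files give spot intensity as a median at 635 nm, neither background-corrected nor normalised. The deposited value table holds intensity on a linear scale with a median of 25 per array. How it was made is not given in the sources used here, and a probe counted as detected where it lists a value. Each array holds 27456 spots and 23473 probes. 25 probes marked by the scanner software were left out, and of 23448 kept, 20666 carry 1 symbol (19300 symbols), 2782 none and 0 several, per the supplied platform table. No symbol changed through its Entrez ID, and 134 were missing from the RefSeq table.

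From the deposited intensity, log2 values were computed after normexp correction (offset 50) and quantile normalisation over the 12 arrays, in R 4.3.3 with limma 3.58.1; figures used Python 3.11.15 and matplotlib 3.10.9. Normalisation was kept when arrays were left out. Probes detected on all compared arrays of either fraction were tested with lmFit and eBayes on the DN and γδ arrays only, two-sided, with Benjamini-Hochberg adjustment over all probes tested and calls at adjusted p under 0.05. Scripts were tested on simulated data. Lists used the brightest probe of each symbol. The members, lists and naming rule were chosen with earlier results of these data known. The rule named, in each setting, up to 12 highest and 12 lowest called probes with a symbol that is no clone name, do not overlap and are detected on all compared arrays of the higher fraction, up to 4 called members of each list, and all measured genes of the sort, γδ and type 17, NK receptor, class II and B cell lists. Unnamed probes and all other genes given with values were chosen after their values were seen. Promoter windows are from RefSeq.

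Replicate numbers were checked for pairing. As deviations from their fraction's mean, DN and γδ arrays with the same number correlated across probes at 0.686, 0.669 and 0.647. Number 1 is also the array series H, and pairs of numbers 2 with 3 correlated at 0.563 and 0.61. The main fits and their p-values were unpaired. Pairing enters only through the counts with the replicate block, which are given beside the main counts.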

Additional observations from a re-analysis of the deposited data

Results flagged for a closer look

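Genes that were lower in DN without γδ 1 also gave signal on the array labelled CD8 1, which belongs to neither of the 2 fractions compared by its label. Probe M200001489 gave 12.72 there, against at most 6.69 on CD8 2, CD8 3 and the CD4 arrays. Probe M400018872 gave 10.03 against at most 5.89. Cd163l1 gave 8.23 against at most 6.18, and Ffar2 gave 8.55 against at most 7.0. Tns4 gave 7.65 against at most 6.12, and Tgm2 gave 7.71 against at most 6.42. Over the 27 probes lower in DN without γδ 1, CD8 1 lay within 1 log2 unit of the mean of γδ 2 and γδ 3 for 24. Over all 20015 probes, CD8 1 differed by more than 2-fold from γδ 2 at only 738 and from γδ 3 at 719. Lying that close is therefore common to most probes, and the 24 shows no match by itself. γδ 1 lay on the γδ side of DN for 17 of the 27. Of the 12 probes higher in DN, γδ 1 lay below all DN arrays for 10. No share over all probes was taken for these counts with γδ 1, so neither can be told from the usual rate. No label or record of the series used here settles what these arrays hold, and the reason for the values was not tested.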

How the results depend on the processing

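Alternatives were planned with earlier results known, except the averaging of replicates 2 and 3 and the 10-array fit, which were added after the data were seen. As labelled, limma called 1 probe, and also 1 without background correction, with offset 16, without a filter, on probes detected on every array, and with a trended robust variance. It called 3 on the deposited value table, 3 with median scaling, 0 with 1 probe per symbol (950 at unadjusted p under 0.05), 4 with all 12 arrays in the fit, 209 with all but γδ 1 and CD8 1, 230 with a block for the array series (117 higher, 113 lower), 2449 within series B, 0 with the replicate block (2649 at unadjusted p under 0.05), and 0 with replicates 2 and 3 averaged (356). Leaving out each array in turn gave 0 to 39 calls, the 39 without γδ 1. Without γδ 1, the 39 calls (12 higher, 27 lower) became 40 without background correction, 36 without a filter and 38 on probes detected on every array. They became 19 with offset 16, 21 on the value table (10 higher, 11 lower), 18 with median scaling (5 higher, 13 lower), 21 with 1 probe per symbol, 16 with a trended robust variance, 8 with all 11 arrays in the fit, and 213 without CD8 1 as well. They became 3206 with the replicate block, 2443 with a block for the array series, 2449 within series B, 1322 in the 10-array fit, and 0 with replicates 2 and 3 averaged (412 at unadjusted p under 0.05). Leaving out each remaining array gave 0 to 2449 calls, with 2449 without DN 1 and 0 without any of the others. The alternative with a block for the array series and that within series B both drop DN 1 from the spread, since γδ has no other array of series H. Of 19 named calls without γδ 1, 0 reversed under any of 20 alternatives, 19 stayed called with either block, 18 in the 10-array fit, 13 with offset 16, 10 with median scaling, 6 on the value table, 1 with all 11 arrays in the fit, and 0 when DN 2, DN 3, γδ 2 or γδ 3 was left out, where the adjusted p rose to at most 0.565. Dim genes are limited by signal over background.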

Other observations

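Some genes outside the comparisons above differed between DN and γδ cells in the 10-array fit and not without γδ 1 alone. Il2rb, the β chain shared by the interleukin 2 and 15 receptors, gave 8.96, 9.98 and 9.96 on DN 1 to 3 and 9.04 and 8.98 on γδ 2 and γδ 3, a difference of 0.94 in the 10-array fit (limma, adjusted p = 0.000615). For this gene DN 1 lay below γδ 2 and γδ 3, and only DN 2 and DN 3 lay above them. Il2ra, the inducible α chain of the interleukin 2 receptor, ran the other way, with 6.32, 6.51 and 6.48 in DN and 7.01 and 7.07 on γδ 2 and γδ 3 (-0.57, adjusted p = 0.00936). Without γδ 1 alone neither was called (adjusted p = 0.616 and 0.1).

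Ly6c1, a surface antigen of memory T cells, gave 7.68, 9.72 and 9.62 on DN 1 to 3 and 8.05, 8.16 and 8.12 on γδ 1 to 3. DN 1 lay below the γδ arrays and DN 2 and DN 3 above them. The 10-array fit gave a difference of 1.46 (adjusted p = 0.000995), against 0.87 without γδ 1 alone (adjusted p = 0.715). Its neighbour Ly6c2, whose transcripts are nearly identical and may share probes, differed by 0.66 and 0.36. Entpd1, the ectoenzyme CD39, gave 6.51, 6.45 and 6.47 in DN and 6.20 and 6.12 on γδ 2 and γδ 3 (0.29 in the 10-array fit, adjusted p = 0.00383).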
